A study of Homo sapiens with 9 samples.

Results

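The histone genes described here are the 64 genes, of 25084 in the deposited table, whose symbols follow the current naming of linker histones (H1 followed by a number) or of the clustered core histones (H2AC, H2BC, H3C and H4C followed by a number), with pseudogenes left out. They comprise 8 H1, 15 H2A, 16 H2B, 13 H3 and 12 H4 genes, and the choice used gene names only. By position 51 of them lie in the histone cluster on chromosome 6 and 11 in the cluster on chromosome 1. The description as replication-dependent is applied by position to these 62, called cluster genes below, which include the testis linker histone gene H1-6. The naming also takes in linker histones made outside S phase, such as H1-10 on chromosome 3. RNA was measured in LAN5, an established human neuroblastoma cell line, at 72 h after nucleofection (delivery by electric pulse) of 1 of 3 siRNAs in growth medium with serum. The control group received siCTR, the second group siMYCN against MYCN and the third siHAND2 against HAND2, with 3 libraries each, and all groups share the cell line, the delivery and the time. MYCN is the MYC-family transcription factor that drives many neuroblastomas, and HAND2 is a basic helix-loop-helix factor of the sympathetic lineage. No source says that the 3 libraries of a group came from separate cultures, so p-values measure the spread between these libraries, which may be technical.

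Replication-dependent histone genes supply the protein that packages new DNA, and their mRNAs accumulate in S phase and are degraded when replication stops. Most have no introns, and their typical mRNAs end in a conserved stem-loop instead of a poly(A) tail. NPAT, switched on by cyclin E and CDK2, drives their transcription in the histone locus body, SLBP binds the stem-loop, and the U7 snRNP guides the cut behind it. Replacement histones such as H3-3B or H2AZ2 are instead made from ordinary polyadenylated mRNAs in all phases and in cells that have stopped dividing. Because the mRNAs that end in the stem-loop have no poly(A) tail, they are well seen only in RNA that was not selected for one. The labels give total RNA here.

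The stem-loop is shown first, since it is the feature by which the mRNAs of the cluster genes are made and bound. In the GENCODE transcripts on GRCh37, a stem of 6 base pairs with a loop of 4 bases was found behind the stop codon of all 58 cluster genes that had a coding transcript there, 22 to 67 bases after the stop (median 35). H1-10 had none, and within 100 bases of the stop it was present in 78 of 19807 protein-coding genes (0.394%). The sites below run 5′ to 3′ on the gene's strand, with the 16 bases of the stem-loop in capitals and 5 bases on each side. They are an abundant H1 gene, the 4 core histone genes whose values are followed below, and the replacement histone H2AX, whose gene also carries the site.
H1-4: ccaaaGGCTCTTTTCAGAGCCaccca
H2AC20: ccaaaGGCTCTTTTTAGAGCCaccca
H2AC15: aaaaaGGTTCTTTTCAGAGCCaccta
H2BC9: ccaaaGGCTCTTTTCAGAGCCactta
H4C9: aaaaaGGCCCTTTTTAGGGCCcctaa
H2AX: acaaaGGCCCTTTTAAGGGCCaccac
On GRCh37 the capitals are at chr6:26157323-26157338 (plus strand) for H1-4, chr1:149858941-149858956 (plus) for H2AC20, chr6:27805663-27805678 (minus) for H2AC15, chr6:26252283-26252298 (plus) for H2BC9, chr6:27107433-27107448 (plus) for H4C9 and chr11:118965608-118965623 (minus) for H2AX. The 16 bases took 10 forms among the 58 genes. The form of H1-4 and H2BC9 was shared by 34 genes, that of H4C9 by 4, and those of H2AC20 and H2AC15 were each found in 1 gene. Not every coding transcript of the cluster genes ended there. H2AC6, H2BC4, H2BC5, H2BC15 and H2BC18 each had 2, of which 1 held the site, and H2BC11 had 3, of which 1 did. The transcript of H2BC21 ran 1729 bases past the site.

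Promoter sequences (250 bases before to 50 after the start, RefSeq, GRCh38.p14) were matched by symbol for 57 cluster genes and searched on both strands. For genes with several windows the one nearest the gene's start in the table was taken. The TATA box TATAAA was present in 39 of the 57 (68.4%) against 11.96% of all 27305 promoters, and the CCAAT box CCAAT in 49 (86.0%) against 35.7%. Class by class, CCAAT was found in every H1, H2A, H2B and H3 promoter and in 2 of 10 H4 promoters. The octamer ATTTGCAT, the letters read by POU2F1, was in 13 of 16 H2B and 10 of 14 H2A promoters against 1.80% of all promoters. GGTCCG, the core of the site of the H4 factor HINFP, was in 10 of 10 H4 promoters (11.2% of all), and AAACACA, the H1 box, in 6 of 6 H1 promoters (5.76% of all). The MYC E-box CACGTG was in 0 of 57 (7.43% of all) and CATCTG, an E-box of basic helix-loop-helix factors, in 8 of 57 (14.04%, against 14.8% of all). Divergent H2A and H2B partners share much of their window, so a single site can be counted in both classes. The octamer of H2AC20 and H2BC21 is such a case, and CATCTG in H2AC13 and H2BC13 is another. These matches describe letters, not bound sites, and a missing match says only that the letters are not in this window. The promoters of 6 genes are given 5′ to 3′ on the gene's strand, 1 per class plus H2BC15, with every match to these 7 motifs in capitals; matches on the opposite strand appear as their reverse complement, and neighbouring matches can overlap.
H1-4: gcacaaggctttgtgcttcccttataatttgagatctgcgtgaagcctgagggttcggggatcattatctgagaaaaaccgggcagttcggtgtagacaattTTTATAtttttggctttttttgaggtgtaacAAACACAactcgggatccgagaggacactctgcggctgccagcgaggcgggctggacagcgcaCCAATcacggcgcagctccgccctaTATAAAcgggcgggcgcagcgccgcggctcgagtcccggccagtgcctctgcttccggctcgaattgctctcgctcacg
H2AC20: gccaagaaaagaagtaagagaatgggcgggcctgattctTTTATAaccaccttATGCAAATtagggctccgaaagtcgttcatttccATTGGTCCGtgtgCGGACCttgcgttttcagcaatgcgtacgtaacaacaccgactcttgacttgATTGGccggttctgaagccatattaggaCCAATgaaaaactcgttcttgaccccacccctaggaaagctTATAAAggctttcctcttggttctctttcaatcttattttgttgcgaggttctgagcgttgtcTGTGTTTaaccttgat
H2BC9: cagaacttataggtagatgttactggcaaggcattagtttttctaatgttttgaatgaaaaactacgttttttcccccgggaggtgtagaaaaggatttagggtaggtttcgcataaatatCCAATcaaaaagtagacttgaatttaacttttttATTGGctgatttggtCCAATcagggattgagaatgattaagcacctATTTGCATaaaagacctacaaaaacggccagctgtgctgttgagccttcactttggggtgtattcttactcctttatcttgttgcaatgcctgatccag
H2BC15: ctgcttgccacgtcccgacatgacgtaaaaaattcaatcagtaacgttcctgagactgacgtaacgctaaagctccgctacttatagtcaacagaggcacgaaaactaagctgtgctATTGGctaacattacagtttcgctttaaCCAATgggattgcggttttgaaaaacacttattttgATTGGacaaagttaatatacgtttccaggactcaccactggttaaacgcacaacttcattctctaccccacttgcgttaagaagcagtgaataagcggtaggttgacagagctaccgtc
H3C2: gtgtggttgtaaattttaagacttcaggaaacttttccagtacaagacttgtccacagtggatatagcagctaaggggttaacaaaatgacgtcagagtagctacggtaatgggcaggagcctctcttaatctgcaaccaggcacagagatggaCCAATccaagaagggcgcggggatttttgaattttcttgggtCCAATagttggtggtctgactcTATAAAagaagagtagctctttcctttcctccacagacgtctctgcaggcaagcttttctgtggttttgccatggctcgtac
H4C9: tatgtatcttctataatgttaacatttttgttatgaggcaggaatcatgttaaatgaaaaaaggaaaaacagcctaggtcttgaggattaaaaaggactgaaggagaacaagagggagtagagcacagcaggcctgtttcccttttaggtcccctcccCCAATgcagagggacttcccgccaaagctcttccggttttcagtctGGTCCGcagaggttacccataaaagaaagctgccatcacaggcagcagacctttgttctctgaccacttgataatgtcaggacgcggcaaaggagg
Their positions on GRCh38.p14 are chr6:26156079-26156378 (plus) for H1-4, chr1:149886668-149886967 (plus) for H2AC20, chr6:26251364-26251663 (plus) for H2BC9, chr6:27838319-27838618 (plus) for H2BC15, chr6:26032050-26032349 (minus) for H3C2 and chr6:27139032-27139331 (plus) for H4C9. The H2BC15 promoter is also that of the divergent gene H2AC15, whose window on the minus strand is chr6:27838326-27838625.

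The unit is CPM, counts scaled to the same total in each library, and the depth was 21.1 M to 32.7 M reads. For the histone genes above 100 CPM the counting error of such a library is 0.637% to 2.17% of the value. MYCN stood at 1848, 1894 and 1786 CPM with siCTR, 1338, 1245 and 1285 with siMYCN, and 898, 969 and 877 with siHAND2. It was thus lower with either siRNA, and lower with siHAND2 than with siMYCN. HAND2 stood at 516, 499 and 489 CPM with siCTR, 588, 557 and 568 with siMYCN, and 268, 267 and 280 with siHAND2. All 12 neuroblastoma markers listed passed the filter on low values, while 0 of 10 immune and 0 of 6 endothelial markers did. Of 12 fibroblast and stromal markers 9 passed, and the sum of the list was 467 to 484 CPM with siCTR, 561 to 569 with siMYCN and 831 to 935 with siHAND2; its part in the histone values was not tested. Fewer cells in S phase and less histone mRNA per cell cannot be told apart in such bulk RNA.

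Together the 64 genes took 2.15% ± 0.036 of all CPM with siCTR, 2.09% ± 0.080 with siMYCN and 2.17% ± 0.118 with siHAND2 (SD, n = 3). The single libraries ran from 2.00% to 2.30%, and both extremes lay outside the siCTR range, the lowest with siMYCN and the highest with siHAND2. On the log2 scale the ratio of the summed CPM was -0.04 for siMYCN to siCTR, 0.02 for siHAND2 to siCTR and 0.06 for siHAND2 to siMYCN, and the groups overlapped in each comparison. The ratios rested on single libraries. Without siHAND2 replicate 2 they were -0.03 for siHAND2 to siCTR and 0.02 for siHAND2 to siMYCN, and without siHAND2 replicate 3 they were 0.05 and 0.09. Without siMYCN replicate 3 the ratio was -0.01 for siMYCN to siCTR and 0.03 for siHAND2 to siMYCN. Of the 62 cluster genes, 58 averaged at least 100 CPM, and 4 of the 64 genes were among the 100 highest of the table.

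**Figure D1:**
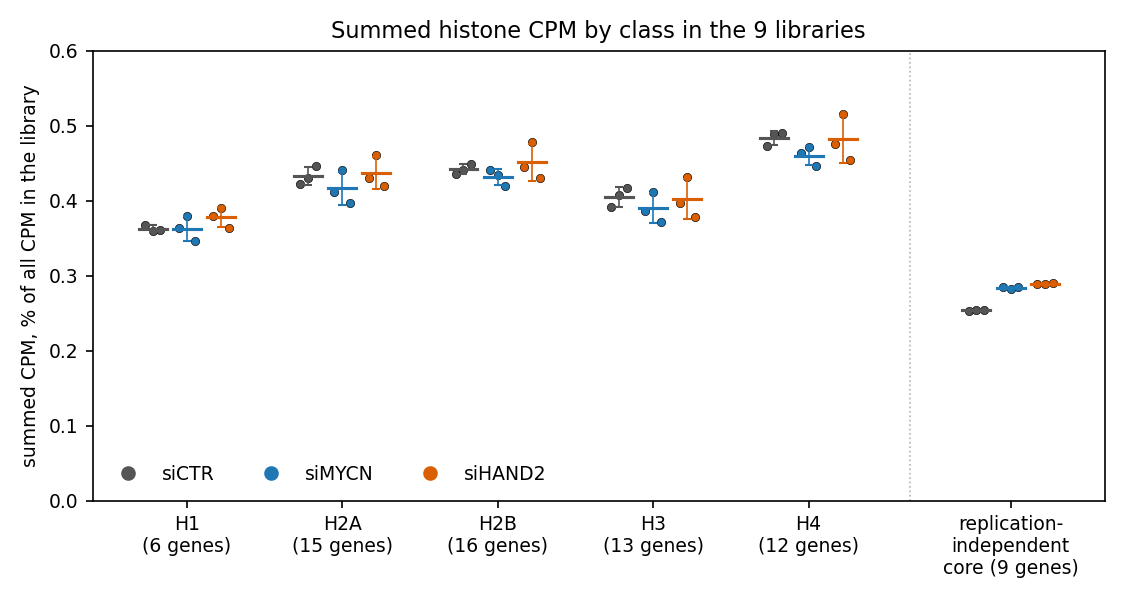
Summed CPM of the cluster genes by class and of 9 replication-independent core histones, as a percentage of all CPM in the library; each point is 1 library, the bar is the group mean and the whisker 1 SD (n = 3). The 3 groups overlap in the classes H1, H2A, H2B and H3, the siMYCN libraries lie just below siCTR in H4, and the replication-independent sum is higher in all 6 siMYCN and siHAND2 libraries than in the 3 siCTR libraries.

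By class, the cluster H4 genes summed to 0.484% ± 0.0097 of CPM with siCTR, 0.460% ± 0.0127 with siMYCN and 0.482% ± 0.0314 with siHAND2. The cluster H1 genes summed to 0.363% ± 0.0041, 0.363% ± 0.0171 and 0.378% ± 0.0131 in the same order. H2A, H2B and H3 lay between them, at 0.433%, 0.442% and 0.405% with siCTR. The 3 siMYCN libraries were below the 3 siCTR libraries for H4 (log2 ratio -0.07), and in the other classes the libraries of the groups overlapped. The chromosome 1 cluster summed to 0.299% ± 0.0044 with siCTR, 0.285% ± 0.0101 with siMYCN and 0.306% ± 0.0224 with siHAND2, and the chromosome 6 cluster to 1.83% ± 0.033, 1.78% ± 0.069 and 1.84% ± 0.095. On chromosome 1 the siMYCN libraries again lay below all siCTR libraries (log2 ratio -0.07), on chromosome 6 they overlapped them.

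Levels can be compared between genes only per length, which was done for the cluster genes with a span under 1000 bases. Per kb of gene, the median was 1056 CPM over 7 H4 genes, 980.0 over 6 H1 genes, 556 over 7 H3 genes, 517 over 13 H2A genes and 439 over 6 H2B genes. The ranges of the classes overlapped. The limit on span kept 7 of 12 H4, 7 of 13 H3 and 6 of 16 H2B cluster genes, so the genes left out are not ranked. Among the genes kept, the highest level per kb was that of H4C3 (1708 CPM per kb), followed by the linker histone gene H1-2 (1602) and by H3C2 (1470). The highest H2A and H2B genes of this kind were H2AC14 (941 CPM per kb) and H2BC12 (815). H1-1 was almost silent at 0.0001 to 0.081 CPM and is the 1 gene of the 64 that did not pass the filter of 1 CPM in 3 libraries. The testis linker histone gene H1-6 stood at 0.75 to 1.88 CPM, H4C15 at 8.78 to 13.02 CPM and H2AC15 at 7.18 to 24.5 CPM. All other cluster genes averaged over 100 CPM.

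The single most abundant gene of each class did not pass the test in either comparison with siCTR. H1-2, which with H1-3, H1-4 and H1-5 encodes the linker histones of dividing cells, stood at 1182, 1162 and 1202 CPM with siCTR, 1157, 1237 and 1105 with siMYCN, and 1154, 1219 and 1121 with siHAND2. H3C2, for the replicative H3, stood at 733, 750.3 and 775 CPM with siCTR, 747, 795 and 706 with siMYCN, and 739.5, 786 and 728 with siHAND2. For both genes the siCTR values lay inside the range of each knockdown group, and the log2 fold changes were -0.02 and -0.02 for H1-2 and -0.01 and -0.00 for H3C2 (siMYCN and siHAND2 against siCTR). H4C5 stood at 741, 769.9 and 784 CPM with siCTR, 756, 729 and 720.5 with siMYCN, and 784, 812 and 736 with siHAND2. H2AC11 stood at 524, 523 and 566 CPM with siCTR, 501, 558 and 491 with siMYCN, and 524, 572 and 519 with siHAND2. H2BC4 stood at 422, 432 and 438 CPM, then 432, 417 and 397, then 436, 462 and 414. In these 3 genes too the groups overlapped, and no log2 fold change against siCTR was larger than 0.06 in size. Of the next most abundant genes, H1-4 and H1-5 passed the test with siHAND2 and are described below. Those of the core classes, H2AC14, H2AC8, H2BC12, H2BC18, H3C3, H3C8, H4C14 and H4C3, had log2 fold changes against siCTR of -0.10 (H3C8, siMYCN) to 0.12 (H2BC18, siHAND2), and none passed the test.

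With siMYCN, 4 of the 61 cluster genes tested changed against siCTR (6.56%), where 35.9% of all 14495 genes did: 24.5% higher and 11.4% lower. Among the 1936 other genes that averaged 100 CPM or more the share was 54.2%. All 4 fell, by less than 0.2 on the log2 scale. The median log2 fold change of the 61 genes was -0.05 and that of all genes 0.06. The cluster median was -0.02 without siMYCN replicate 3 and -0.03 without siCTR replicate 3. Of the 61, 46 had a fold change below 0, and 60 had a 95% interval inside ±0.5 on the log2 scale, 50 of them inside ±0.25. At an unadjusted p under 0.05, 11 of the 63 histone genes tested passed, where at least the 35.9% of all genes past the adjusted test did.

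H2BC9 stood at 234, 229 and 238 CPM with siCTR and at 213, 203 and 199 with siMYCN. All 3 siMYCN libraries were below all 3 siCTR libraries, and H2BC9 fell by 0.19 on the log2 scale (SE 0.05, limma adjusted p = 0.0051). H2BC15 stood at 194, 203 and 196 CPM with siCTR and at 179, 172 and 171 with siMYCN. Its groups did not overlap, and it fell by 0.18 (SE 0.05, limma adjusted p = 0.013). H4C9 stood at 266, 262 and 266 CPM with siCTR and at 236, 247 and 224 with siMYCN, again without overlap. It fell by 0.17 (SE 0.05, limma adjusted p = 0.011). H2AC20, on chromosome 1, stood at 244, 246 and 244 CPM with siCTR and at 216, 233 and 210.4 with siMYCN. Its siCTR libraries lay close together, above all siMYCN libraries, and it fell by 0.16 (SE 0.04, limma adjusted p = 0.0092). H1-3 was the H1 gene with the lowest fold change, -0.11 (SE 0.04, limma adjusted p = 0.064), with non-overlapping groups of 612, 609 and 587 CPM against 574, 573 and 534. H2AC15, a weakly expressed gene, stood at 14.8, 7.18 and 17.1 CPM with siCTR and 18.7, 22.3 and 14.1 with siMYCN, overlapping groups with a fold change of 0.52 (SE 0.21, limma adjusted p = 0.064).

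The count of changed genes with siMYCN rested on the scaling and the libraries. With libraries rescaled by the median ratio to a common reference, 15 of 61 cluster genes passed, all lower, where 4759 of 14495 genes did. The cluster median moved to -0.11 and that of all genes to 0.01. The share of higher genes among all called genes went from 68.3% to 50.6%. With quantile normalization 12 cluster genes passed, 3 higher and 9 lower, where 4728 of all genes did, and the share of higher genes was 49.3%. Without siMYCN replicate 3, H2AC20 (limma adjusted p = 0.055) and H4C9 (0.064) no longer passed, and without siCTR replicate 2 H2BC15 did not (0.061). Without siHAND2 replicate 3, which only enters through the shared spread, 9 cluster genes passed, where 5854 of 14373 genes did. With the replicate number as a block in the fit, 13 cluster genes passed, 1 higher and 12 lower, where 5895 of 14495 genes did.

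**Figure D2:**
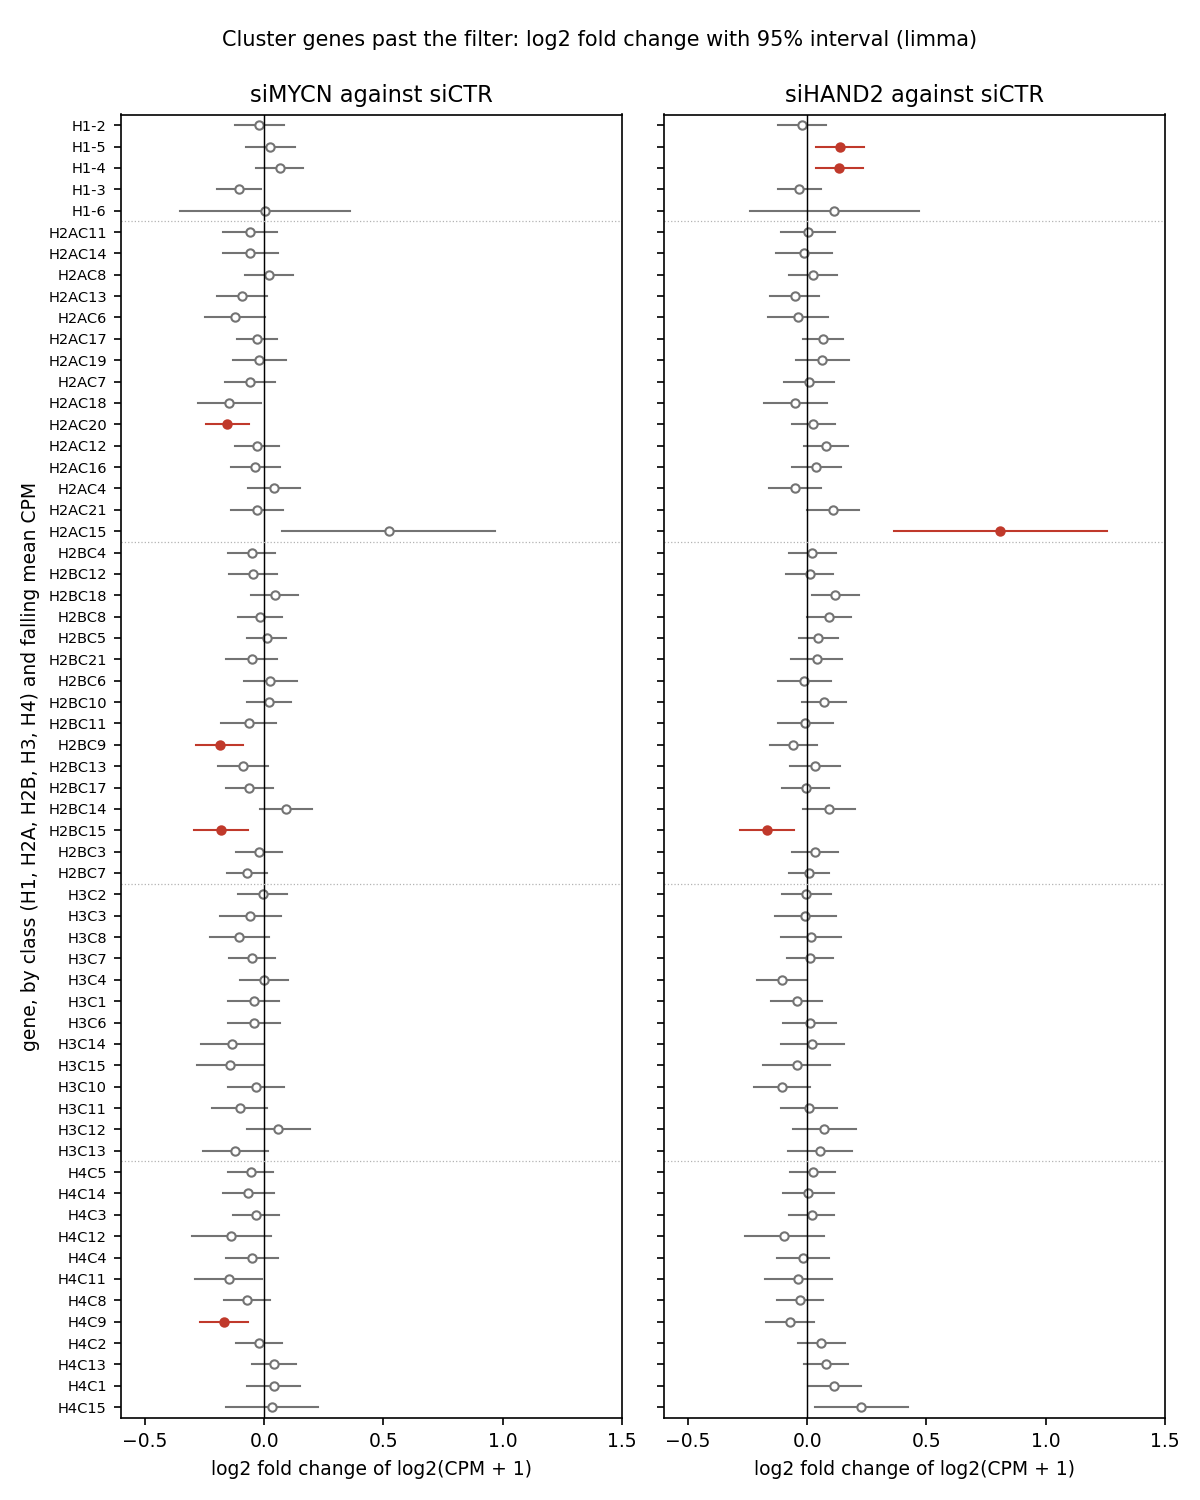
Log2 fold change of log2(CPM + 1) with its 95% interval (limma, 9 libraries in 1 fit) for the 61 cluster genes past the filter, by class, against siCTR; filled red points passed an adjusted p of 0.05. Most intervals are narrow and span 0 in both panels, and the 4 red points of each panel lie within 0.25 of 0, apart from H2AC15 with siHAND2.

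With siHAND2, again 4 of the 61 cluster genes changed against siCTR (6.56%), where 29.9% of all genes did: 18.1% higher and 11.8% lower. The share was 44.0% among the other genes with at least 100 CPM. Of the 4, H2AC15, H1-4 and H1-5 rose and H2BC15 fell. The median log2 fold change of the 61 cluster genes was 0.01 against 0.04 for all genes. Its sign rested on single libraries, with a median of -0.03 (2 genes higher and 3 lower past the test) without siHAND2 replicate 2 and of 0.05 without siHAND2 replicate 3. After median-ratio rescaling 3 cluster genes passed (1 higher, 2 lower), where 4250 of 14495 genes did. The cluster median went to -0.04, and the share of higher genes among all called genes from 60.6% to 45.6% (47.8% with quantile normalization). Of the 61, 38 were above 0, 60 had a 95% interval inside ±0.5 and 56 inside ±0.25. At an unadjusted p under 0.05, 9 of the 63 histone genes passed, where at least the 29.9% of all genes past the adjusted test did. Both comparisons use the same 3 siCTR libraries.

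H2AC15 stood at 14.8, 7.18 and 17.1 CPM with siCTR and at 23.0, 24.5 and 19.6 with siHAND2. The groups did not overlap, with siCTR replicate 2 far below the other control libraries, and H2AC15 rose by 0.81 (SE 0.21, limma adjusted p = 0.0082), the largest change of a cluster gene. Without siCTR replicate 2 it still passed, at 0.46. H2BC15 stood at 194, 203 and 196 CPM with siCTR and at 177, 191 and 160.0 with siHAND2. It fell by 0.17 (SE 0.05, limma adjusted p = 0.024), and its highest siHAND2 library lay just under its lowest siCTR library. In the table H2AC15 lies on the minus strand wholly inside the span given for H2BC15, an overlap of 496 bases, and no source used here says whether reads were counted by strand, so reads of this pair may be split between them. H2AC16, at a mean of 169 CPM, also lies inside the span of H2BC15, on the same strand with an overlap of 482 bases, so the H2BC15 value may share reads with H2AC16 as well even if strand was used. H1-4 stood at 949, 907 and 865 CPM with siCTR and at 1022, 1013 and 952 with siHAND2. H1-5 stood at 929, 915 and 961 CPM with siCTR and at 1041, 1056 and 989.9 with siHAND2. Both linker histone genes had groups that did not overlap, though for H1-4 the lowest siHAND2 library lay just above the highest siCTR library. They rose by 0.13 (SE 0.05, limma adjusted p = 0.041) and by 0.14 (SE 0.05, limma adjusted p = 0.041). The other abundant linker genes, H1-2 and H1-3, had fold changes of -0.02 and -0.03, and H2BC9, H4C9 and H2AC20, lower with siMYCN, had -0.06, -0.07 and 0.03 with siHAND2, none past the test.

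The calls of H1-4, H1-5 and H2BC15 were close to the threshold, and that of H2AC15 was lost only with no intensity trend (limma adjusted p = 0.0501). H1-4 and H1-5 each lost it in 7 of the 19 alternatives run, among them median-ratio rescaling (limma adjusted p = 0.21 and 0.19). Without any intensity trend 0 of the 63 genes passed in limma, where 3869 of all genes did, and 6 of the 63 had an unadjusted p under 0.05. H2BC15 was lost without siCTR replicate 2 (limma adjusted p = 0.099) and without siHAND2 replicate 3 (0.083, with a fold change of -0.10), H1-4 was lost without siCTR 3 (0.17), siHAND2 1 (0.12) and siHAND2 2 (0.11), H1-5 without siCTR 1 (0.11), siHAND2 1 (0.096) and siHAND2 2 (0.13), and both without siCTR 2 (0.0996 and 0.14). The number of cluster genes past the test was 7, all higher, without siHAND2 replicate 3, and 1 without siCTR replicate 2, 3 without siCTR replicate 3 and 3 without siHAND2 replicate 1. Over all genes 4290, 3075, 3820 and 3958 passed, in the same order. With the replicate number as a block in the fit, 7 cluster genes passed, 5 higher and 2 lower, where 5089 of 14495 genes did.

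Between the knockdowns, 1 of the 61 cluster genes differed (1.64%), where 26.9% of all genes did: 11.4% higher with siHAND2 and 15.5% lower. The share was 39.0% among the other genes with at least 100 CPM. This was H2AC20, at 246, 255 and 246 CPM with siHAND2 against 216, 233 and 210.4 with siMYCN, a log2 difference of 0.18 (SE 0.04, limma adjusted p = 0.0043). Of the 61 cluster genes 56 had a higher mean log2 value with siHAND2, with a median difference of 0.07 against -0.01 for all genes. An unadjusted p under 0.05 was reached by 13 of the 63 histone genes, and by at least the 26.9% of all genes past the adjusted test. In the 11 genes of the chromosome 1 cluster the difference of group means was 0.07 to 0.20, with a median of 0.10. In the 50 tested genes of the chromosome 6 cluster it was -0.11 to 0.29, with a median of 0.06. The groups overlapped in the summed CPM of the chromosome 1 cluster. Its sum in siHAND2 replicate 3, 2840 CPM, was below siMYCN replicates 1 and 2, at 2873 and 2934. Without siHAND2 replicate 3 the number of cluster genes past the test was 14 of 61, near the share of all genes (3514 of 14373). Without siMYCN replicate 2 it was 4, where 3387 of 14417 genes passed. All of these cluster genes were higher with siHAND2. Without siHAND2 replicate 2 the median difference was 0.02, with 1 cluster gene higher and 1 lower past the test, and without siMYCN replicate 3 the median was 0.04. With the replicate number as a block in the fit, 10 cluster genes passed, 9 higher and 1 lower, where 4689 of 14495 genes did.

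Within the groups, the cluster genes moved together from library to library. Replicate 2 was the highest of the siHAND2 libraries for 58 of the 61 cluster genes and replicate 3 the lowest for 47. Among the siMYCN libraries replicate 3 was the lowest for 52 genes, and among the siCTR libraries replicate 1 was the lowest for 38 and replicate 3 the highest for 41. The median deviation from the group mean was 0.09 for siHAND2 replicate 2 and -0.07 for siHAND2 replicate 3 on the log2 scale, and -0.06 for siMYCN replicate 3. Within siHAND2 the range of these medians was thus wider than the median fold change of the cluster genes in any of the 3 comparisons. Over all tested genes the median deviation of any library was between -0.01 and 0.02. The residual SD of the 58 cluster genes above 100 CPM had a median of 0.07, against 0.05 for the 1936 other genes of that level.

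Other RNAs without a poly(A) tail varied in some of the same libraries. Of 19 past the filter, among them RN7SL1, RN7SK, RMRP and TERC, 16 were lowest in siMYCN replicate 3 among the siMYCN libraries, and 15 were lowest in siHAND2 replicate 3. Their median deviations there were -0.10 and -0.13. Among the siCTR libraries they moved differently from the cluster genes. There replicate 3 was the lowest for 10 of the 19 and the highest for 9, with a median deviation of -0.02, against 0.02 for the cluster genes. RN7SL1, RN7SL2, RN7SK, RMRP and RPPH1 alone took 10.5% to 12.2% of all CPM. With siMYCN 5 of the 19 fell and 1 rose, with a median of -0.12, and with siHAND2 2 fell, with a median of -0.09. Of all genes 11.4% fell with siMYCN and 11.8% with siHAND2, so the share that fell with siHAND2 was near that of all genes. The medians of all genes were 0.06 and 0.04. Whether the recovery of these RNAs in the libraries plays a part in the histone values was not tested.

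**Figure D3:**
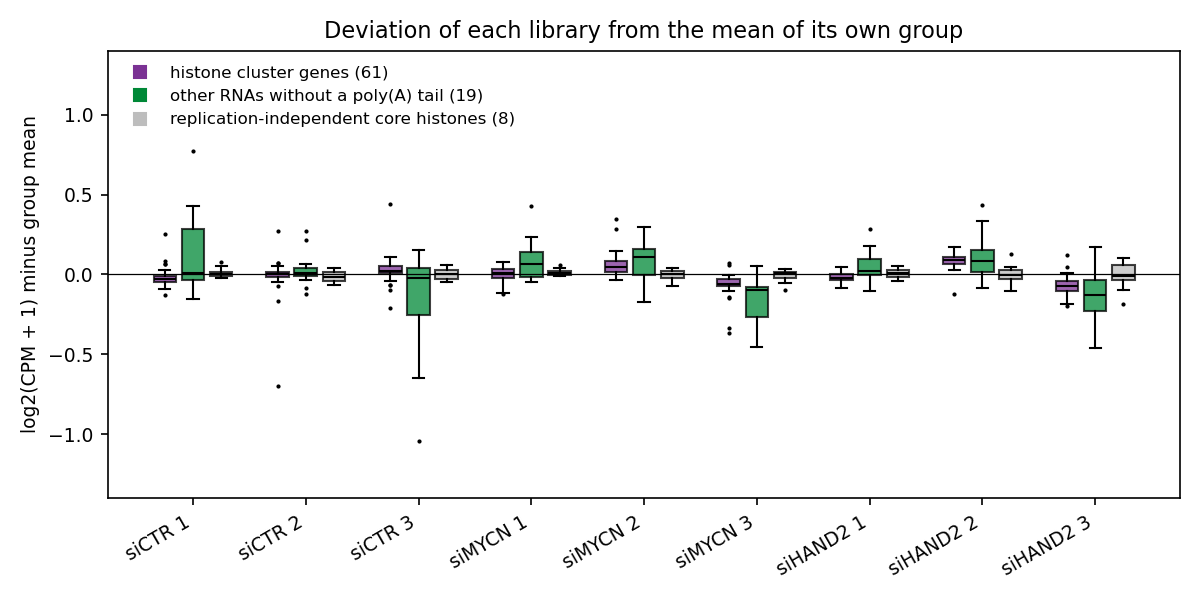
Deviation of log2(CPM + 1) in each library from the mean of its own group, for 61 cluster genes, 19 other RNAs without a poly(A) tail and 8 replication-independent core histones; boxes span the quartiles, the line is the median, whiskers cover the values not shown as dots. The cluster genes sit high in siHAND2 2 and low in siHAND2 3 and siMYCN 3, where the other RNAs without a poly(A) tail also sit low, and the replication-independent core histones stay near 0.

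Neighbouring and near-identical genes were compared as well. The table holds 9 pairs of an H2A and an H2B gene that point away from each other with spans 218 to 282 bases apart. In these 9 the log2 fold changes of the partners differed by at most 0.15 when siMYCN was set against siCTR, by 0.11 for siHAND2 and by 0.11 between the knockdowns. The largest of these was H2AC14 and H2BC14. The divergent pair H2AC15 and H2BC15, whose spans overlap in the table, is not among the 9, and its partners differed by 0.71 with siMYCN, 0.98 with siHAND2 and 0.27 between the knockdowns. The pair H2BC21 and H2AC20 differed by 0.10 with siMYCN, where H2AC20 fell and H2BC21 had a fold change of -0.05. On chromosome 1, H3C14 and H3C15 have identical coding sequences and similar levels, means of 250 ± 6.91 and 245 ± 4.39 CPM with siCTR. H4C14 and H4C15 also have identical coding sequences, but stood at 728 ± 26.4 and 10.0 ± 1.09 CPM with siCTR. H4C11 and H4C12 are the third such pair. How reads that match both copies were assigned is not given in the sources used here, so the separate values within these pairs are uncertain. H2AC18, H2BC7, H2BC8 and H4C2 had no coding transcript to compare. The promoter windows of H2AC18 and H2AC19 differ only at their ends, so the same may apply to their values, with fold changes of -0.15 and -0.02 with siMYCN. In all, 16 of the 64 genes overlap another gene of the table.

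H1-10, a linker gene outside the clusters, stood at 133, 132 and 113 CPM, then 147, 142 and 128, then 134, 141 and 115 with siCTR, siMYCN and siHAND2. Its groups overlapped and its fold changes of 0.14 and 0.04 did not pass.

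Of the replication-independent core histones, 8 were tested, with 3 higher and 0 lower with siMYCN, and 4 higher and 0 lower with siHAND2. Over all genes 35.9% changed with siMYCN (24.5% higher) and 29.9% with siHAND2 (18.1% higher), so the share called with siMYCN was near that of all genes. The medians of the 8 genes were 0.07 and 0.12, against 0.06 and 0.04 for all genes, and -0.05 and 0.01 for the cluster genes. H3-3B, a gene for the replacement H3, stood at 721, 742 and 707 CPM with siCTR, 892, 879 and 902 with siMYCN, and 921, 894 and 908 with siHAND2. Both knockdown groups lay far above siCTR, with rises of 0.30 (SE 0.04, limma adjusted p = 1.76e-05) and 0.33 (SE 0.04, limma adjusted p = 7.21e-06). H3-3A, the second gene for that protein, stood at 528, 537 and 539.8 CPM with siCTR, 552, 559 and 556 with siMYCN, and 596, 609.9 and 632 with siHAND2. It rose by 0.20 with siHAND2 (SE 0.04, limma adjusted p = 9.83e-04) and had a fold change of 0.05 with siMYCN that did not pass. H2AZ2, for the variant placed at gene starts, stood at 315, 303 and 294 CPM with siCTR, 372, 362 and 372 with siMYCN, and 337, 344 and 334 with siHAND2. It rose by 0.28 with siMYCN (SE 0.04, limma adjusted p = 4.49e-05) and by 0.15 with siHAND2 (SE 0.04, limma adjusted p = 0.0074), the latter at 0.052 after median-ratio rescaling. MACROH2A2, for a large H2A variant of silent chromatin, rose by 0.24 with siMYCN (SE 0.05, limma adjusted p = 0.0013) and by 0.31 with siHAND2 (SE 0.05, limma adjusted p = 1.57e-04), from 127 ± 3.47 CPM to 150 ± 6.61 and 158 ± 9.05. H2AZ1, MACROH2A1, CENPA and H2AX had fold changes of -0.07 to 0.08 in both comparisons and none passed; H2AX, which carries the stem-loop, had -0.04 and -0.01. Between the knockdowns H3-3A was higher with siHAND2 (0.14) and H2AZ2 lower (-0.13, limma adjusted p = 0.025). The H2AZ2 call was lost in 5 of the 19 alternatives, with quantile normalization (0.055), with no intensity trend (0.074) and without siMYCN replicate 1 (0.086), siMYCN replicate 3 (0.072) or siHAND2 replicate 1 (0.052).

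Summed over 9 listed genes, the replication-independent core histones took 0.254% ± 0.00011 of CPM with siCTR, 0.284% ± 0.0013 with siMYCN and 0.289% ± 0.0010 with siHAND2. The 3 siCTR libraries lay below all others. Such a sum is weighted to abundant genes like H3-3B, and of the 8 genes tested 3 rose with siMYCN and 4 with siHAND2.

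**Figure D4:**
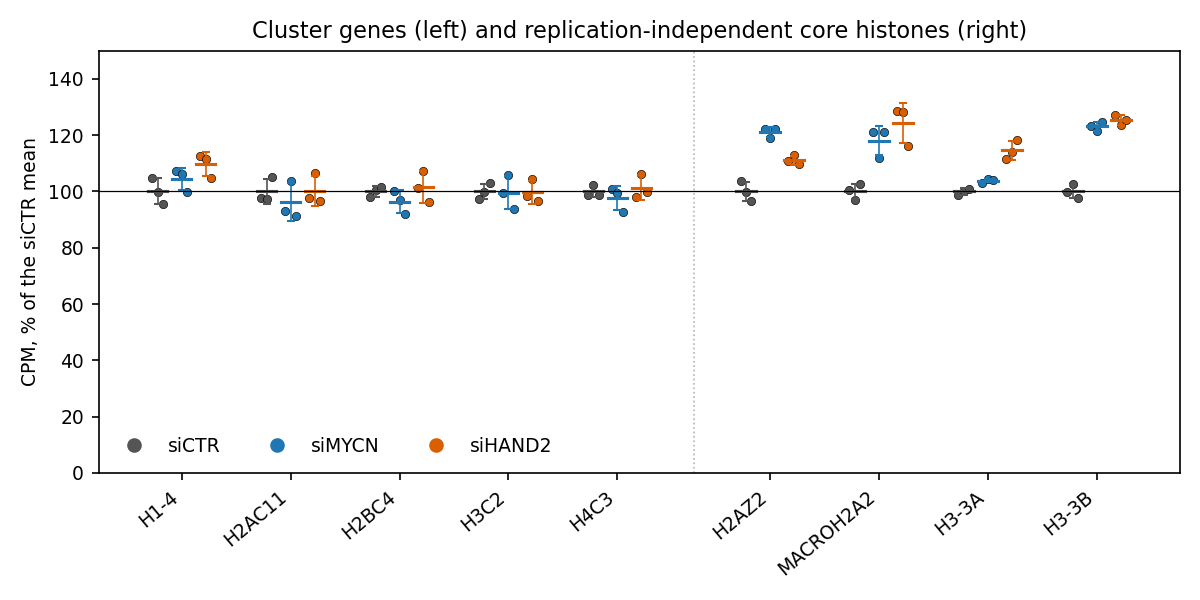
CPM as a percentage of the gene's siCTR mean in each library for the cluster genes H1-4, H2AC11, H2BC4, H3C2 and H4C3 (left) and 4 replication-independent core histone genes that changed (right); bars are means and whiskers 1 SD (n = 3). The cluster genes stay around the siCTR mean apart from H1-4 with siHAND2, while H3-3B lies above 120% in all 6 knockdown libraries.

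H2AW and H2BU1, an H2A and an H2B gene outside both clusters whose current names do not follow the naming used to choose the genes, are given for completeness. H2AW stood at 57.8, 58.7 and 56.0 CPM with siCTR, 50.5, 50.4 and 44.9 with siMYCN, and 53.0, 54.6 and 46.2 with siHAND2. It fell by 0.24 with siMYCN (SE 0.06, limma adjusted p = 0.0074). H2BU1 stood at 140.1, 138 and 135 CPM, then 128.0, 128.0 and 125, then 121, 134 and 120.4. It fell by 0.14 with siHAND2 (SE 0.05, limma adjusted p = 0.028). In both genes all 6 knockdown libraries lay below all siCTR libraries.

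The genes that make and process histone mRNA were examined as a list of 25, of which 24 were tested. With siMYCN 1 rose and 5 fell and with siHAND2 3 rose and 2 fell, where 35.9% and 29.9% of all genes changed. The medians were 0.02 and 0.03, against 0.06 and 0.04 for all genes. SLBP, the stem-loop binding protein, stood at 76.7, 72.8 and 73.5 CPM with siCTR, 75.1, 75.5 and 72.1 with siMYCN, and 78.1, 72.5 and 79.3 with siHAND2. Its groups overlapped, and its fold changes were -0.00 and 0.04. NPAT, the coactivator of histone transcription, stood at 68.0, 63.6 and 65.5 CPM, then 66.5, 66.2 and 71.8, then 70.6, 70.5 and 74.1. All siHAND2 libraries were above siCTR, with a fold change of 0.12 that did not pass (SE 0.05, limma adjusted p = 0.061). HINFP, the H4 promoter factor, had fold changes of -0.12 and -0.06, ZNF473, a protein of the U7 complex, 0.04 and 0.09, and LSM10, a ring protein of the U7 snRNP, 0.08 and -0.16. CDK2 had 0.02 and 0.07 and CCNE1 -0.01 and -0.07, and none of these passed.

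LSM11, the other ring protein particular to the U7 snRNP, stood at 43.8, 45.9 and 42.8 CPM with siCTR, 50.1, 46.8 and 50.0 with siMYCN, and 34.0, 34.1 and 38.1 with siHAND2. The siHAND2 libraries were lowest and the siMYCN libraries highest, without overlap. LSM11 fell by 0.31 with siHAND2 (SE 0.06, limma adjusted p = 4.87e-04), had a fold change of 0.15 with siMYCN (SE 0.06, limma adjusted p = 0.053), and was lower by 0.46 with siHAND2 than with siMYCN (limma adjusted p = 1.06e-05). CCNE2, a cyclin that activates CDK2, stood at 13.4, 12.02 and 14.9 CPM with siCTR, 14.7, 15.04 and 15.7 with siMYCN, and 18.5, 16.3 and 18.3 with siHAND2. It rose by 0.38 with siHAND2 (SE 0.08, limma adjusted p = 0.0018). CASP8AP2, a component of the histone locus body, stood at 103, 102 and 108 CPM with siCTR, 114, 118 and 119 with siMYCN, and 109, 119 and 131 with siHAND2. It rose by 0.16 (SE 0.06, limma adjusted p = 0.029) and 0.19 (SE 0.06, limma adjusted p = 0.017), close to the threshold. Its siMYCN call was lost without siCTR 1 (0.085), siCTR 2 (0.10), siMYCN 2 (0.075) or siMYCN 3 (0.086) and after either rescaling (0.14 and 0.12), and its siHAND2 call without siCTR 1 (0.060), siCTR 2 (0.073) or siHAND2 3 (0.059, with a fold change of 0.12). The 5 genes that fell with siMYCN, named here after their values were seen, were SNRPB (-0.30), SNRPE (-0.25), SNRPG (-0.24) and SNRPF (-0.17), ring proteins shared by the spliceosomal snRNPs and U7, and CPSF3 (-0.24), the nuclease that makes the cut. With siHAND2 the others were COIL (0.18), for the scaffold of Cajal bodies, and SYMPK (-0.20), for a scaffold of the cleavage complex.

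Of the 12 genes for translation and decay of histone mRNA, 3 rose and 0 fell with siMYCN, and 3 rose and 1 fell with siHAND2, where 35.9% and 29.9% of all genes changed. The medians were 0.04 and 0.07, against 0.06 and 0.04 for all genes. ERI1, the nuclease that trims the stem-loop, stood at 33.3 to 36.5 CPM in the siCTR and siMYCN libraries and 30.6 to 35.7 with siHAND2, with fold changes of -0.03 and -0.03. The genes that changed, named after their values were seen, were CTIF (0.21), UPF1 (0.21) and TUT7 (0.16) with siMYCN, and XRN1 (0.23), TUT4 (0.21), PNRC2 (0.18) and MIF4GD (-0.33) with siHAND2. UPF1 and XRN1 act in mRNA decay, TUT4 and TUT7 add uridines to RNA ends, and MIF4GD binds SLBP in translation.

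Of 18 histone chaperones and supply genes, 2 rose and 2 fell with siMYCN, and 3 rose and 2 fell with siHAND2, where 35.9% and 29.9% of all genes changed. The medians were 0.01 and 0.04, against 0.06 and 0.04 for all genes. IPO4, an importin that carries H3 and H4 into the nucleus, stood at 68.0, 70.2 and 66.4 CPM with siCTR, 47.8, 44.7 and 42.6 with siMYCN, and 47.7, 48.8 and 43.8 with siHAND2. It fell by 0.59 (SE 0.06, limma adjusted p = 8.36e-07) and 0.54 (SE 0.06, limma adjusted p = 1.63e-06). NAP1L1, an H2A-H2B chaperone, fell by 0.41 (SE 0.05, limma adjusted p = 8.84e-06) and 0.24 (SE 0.05, limma adjusted p = 0.0016). In both genes all knockdown libraries were below all siCTR libraries. ATRX, which deposits the replacement H3 with DAXX, rose by 0.30 and 0.18, ASF1B, a chaperone of new H3 and H4, by 0.16 with siMYCN, and ASF1A and NASP by 0.17 and 0.16 with siHAND2. These 6 were named after their values were seen.

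Of 40 S phase genes, which include SLBP and CCNE2, 6 rose and 7 fell with siMYCN, 6 rose and 2 fell with siHAND2, and 12 were higher and 1 lower with siHAND2 than with siMYCN. Over all genes 35.9%, 29.9% and 26.9% passed in these comparisons. The medians of the S phase genes were -0.00, 0.04 and 0.06, against 0.06, 0.04 and -0.01 for all genes. Summed, the list took 0.550% ± 0.0078 of CPM with siCTR, 0.546% ± 0.0052 with siMYCN and 0.570% ± 0.0097 with siHAND2, with the siHAND2 libraries above all others. Of 30 G2 and M phase genes, 1 rose and 5 fell with siMYCN and 1 rose and 3 fell with siHAND2. In both directions together these were smaller shares than the 35.9% and 29.9% of all genes. The medians of this list were -0.03 and -0.03, against 0.06 and 0.04 for all genes. Whether the share of cells in S phase plays a part in the histone values was not tested.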

How the data were processed

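Total RNA of LAN5 cells was sequenced in 9 libraries, 3 per siRNA. The authors deposited 1 table of CPM over 25084 genes, with a constant of 0.0001 in every value. The submitters' processing notes name STAR 2.5.1, Partek, hg19 and GRCh37, with no role for each. The coordinates in the table go against that build: all 64 histone genes matched RefSeq GRCh38.p14 by symbol, 42 with a start within 20 bases and 59 within 5000. Stem-loop positions are GRCh37 (GENCODE v44lift37) and promoter positions GRCh38.p14 (RefSeq). Counting tool, use of strand and treatment of reads that match several genes are not given in the sources used here. The smallest step between CPM values gave the depth, 21.1 M to 32.7 M reads; 79.4% to 80.9% of low values were whole multiples of it within 0.02 of a step, too few for a count model. PCR copies are not independent molecules, so counting error is a lower limit.

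The 14495 genes that reached 1 CPM in 3 or more of the 9 libraries were tested on log2(CPM + 1), which understates changes of low genes. Limma 3.58.1 in R 4.3.3 fitted 1 mean per group to all 9 libraries with an intensity trend; p-values are two-sided, adjusted by Benjamini-Hochberg over all tested genes, with a threshold of 0.05, and limma adjusted p means this value. The script was tested on simulated data. Errors are SDs over 3 libraries or limma standard errors. Alternatives were other pseudocounts, filters, scalings and weights, no trend, 2 groups only, a replicate block and each library left out. Named genes were the 3 most abundant genes per class, the H1 genes past the filter, the largest called changes per contrast, fixed processing genes, the replication-independent histones, testis genes, the chromosome 1 cluster and others chosen after their values were seen, marked so. The members and lists were chosen with earlier results of these data known. 1 of the 64 histone genes is not reported here by itself. No list was tested as a set, and counts and medians stand beside the shares and medians of all genes tested.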

Additional observations from a re-analysis of the deposited data

How the results depend on the processing

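The 53 named genes gave 3015 values under the alternatives, of which 2888 kept their side of the threshold, 82 newly passed it and 44 no longer did. Values that did not pass could change sign and still count among the 2888. A single value newly passed in the opposite direction: H1-2 with siMYCN against siCTR, -0.02 and not past the test, was 0.13 with quantile normalization. Over all 63 histone genes tested, those outside the clusters included, the number past the test for siMYCN against siCTR, 5, was 16 with median-ratio rescaling, 13 with quantile normalization and 11 with only the 2 groups in the fit, and ran from 4 to 10 with a library left out. For siHAND2 against siCTR, 5, it was 3 with no filter on low values, 3 with median-ratio rescaling and 0 with no intensity trend, and ran from 2 to 8 with a library left out. For siHAND2 against siMYCN, 2, it was 4 with a filter of 5 CPM, 7 with median-ratio rescaling and 7 with quantile normalization, and ran from 2 to 15. The log2 ratio of the summed CPM for siMYCN to siCTR moved from -0.04 to -0.10 with median-ratio rescaling and ran from -0.07 to -0.01 with a library left out. That for siHAND2 to siCTR, 0.02, was -0.03 with median-ratio rescaling and ran from -0.03 to 0.05 with a library left out, and that for siHAND2 to siMYCN, 0.06, ran from 0.02 to 0.09. The cause of these shifts was not tested. The number of all genes called stayed within 4013 to 5895, 3075 to 5089 and 2909 to 4689 over all 19 alternatives. With the replicate number as a block in the fit the histone counts were 15, 8 and 11, where 5895, 5089 and 4689 of all genes passed. The numbers were not taken to pair the libraries, because the labels give only a replicate number. Libraries of the same number had deviations that correlated at -0.04 to 0.31, over 0.1 in 6 of 9 pairs. Of the 9 libraries, 7 correlated best with one of their own number. A pairing is thus possible, and the main fit does not use it. No histone genes had the same value in every library, so leaving such copies out of the sum was not run. The design of 3 libraries a group and the shared library-to-library movement limit the cluster genes to standard errors near 0.05. Differences under about 0.1 on the log2 scale were thus not detectable for most of them, even at an unadjusted p of 0.05. Larger ones could also miss the adjusted threshold, such as H2AC18 with siMYCN against siCTR (-0.15, limma adjusted p = 0.076) and H2BC13 between the knockdowns (0.12, limma adjusted p = 0.0825).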
